A study of Mus musculus with 7 samples.

Results

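The genes described here are 44 type I interferon stimulated genes, whose transcripts were quantified in microglia isolated from the brains of glioma-bearing mice. They were taken by name from the table of 24537 genes, where each of the 44 has a row. All 44 passed the filter on low values, which asked for 1 FPKM or more in 2 or more libraries and left 13028 genes for testing. FPKM is the number of fragments per kilobase of transcript and per unit of sequencing depth. The rule names known interferon targets and uses no measured value, but the members were chosen with earlier results of these data known.

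The cells came from C57BL/6 mice carrying the 005 glioma, a transplanted mouse glioblastoma model, at day 35 after implantation. They were sorted as microglia by an intermediate level of CD45 and by CX3CR1. The first group, of 3 libraries, received an antibody against CTLA4, an inhibitory receptor of T cells, together with depletion of CD4 T cells by an antibody to CD4. The second group, of 2 libraries, is labelled anti-CTLA4 alone, and the last group, of 2 libraries, received control IgG. All 3 groups share the strain, the glioma, the day and the sort. Nothing in the labels says whether replicates are different animals. The p-values therefore cover variation among these 7 libraries, and part of it could be technical.

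Type I interferons bind a receptor made of IFNAR1 and IFNAR2, whose kinases JAK1 and TYK2 activate STAT proteins, STAT2 among them. With IRF9 these form the complex ISGF3, which enters the nucleus and binds a short DNA element in front of its targets, the interferon stimulated response element. The targets include sensors of foreign RNA and DNA, enzymes that degrade or modify RNA, antiviral effectors, and STAT2, IRF9 and IRF7 themselves. In microglia, the resident macrophages of the brain, this programme is known from infection, injury, ageing and tumours.

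The promoters of several members carry the core of this element, GAAANNGAAA, searched on both strands over the 250 bases before the annotated start. Promoter sequences were those of RefSeq on build GRCm38.p6, and 32 of the 44 members had an entry. The core was present in 12 of these 32, or 37.5%, against 978 of 32851 promoters of all genes, or 2.98%. A member counted once if any of its entries matched, whereas the background counts entries, so these shares differ in unit. A longer form with a following C, GAAANNGAAAC, which is contained in the matches of the shorter one, was present in 9 members, or 28.1%, against 0.685% of all promoters. The element of STAT dimers, TTCNNNGAA, was present in 5 members, or 15.6%, against 7.02% of all promoters. A match describes letters in the sequence and not a bound site. The windows of 7 members are given here: Isg15, Ifit3, Stat2 and Bst2 because they were called in the comparisons that follow, and Ifit1, Oas1a and Oas1g because they carry a core and were not called. They are written 5′ to 3′ along the strand of the gene, capitals mark every core, and TTTC first marks a core on the opposite strand.
Isg15, chr4:156200855-156200916, minus strand: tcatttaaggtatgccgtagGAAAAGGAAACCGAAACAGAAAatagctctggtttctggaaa
Ifit3, chr19:34583353-34583436, plus strand: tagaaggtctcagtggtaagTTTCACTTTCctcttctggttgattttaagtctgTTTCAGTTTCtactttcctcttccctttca
Ifit1, chr19:34640765-34640833, plus strand: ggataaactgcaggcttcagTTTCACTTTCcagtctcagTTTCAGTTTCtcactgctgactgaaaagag
Stat2, chr10:128270256-128270305, plus strand: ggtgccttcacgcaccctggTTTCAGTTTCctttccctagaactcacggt
Bst2, chr8:71537567-71537622, minus strand: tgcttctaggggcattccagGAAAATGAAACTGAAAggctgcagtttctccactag
Oas1a, chr5:120907526-120907565, minus strand: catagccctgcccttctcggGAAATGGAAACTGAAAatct
Oas1g, chr5:120887614-120887651, minus strand: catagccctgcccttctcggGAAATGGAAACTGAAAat

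In Isg15, 3 overlapping cores began 78 bases before the start, and Ifit3 and Ifit1 each hold 2 separate cores. Oas1a and Oas1g have the same letters in the window and differ in where the annotated start falls. Of the genes with windows given, Bst2, Ifit3, Stat2 and Oas1a had no reference transcript that held the bases after the annotated start. Their starts are thus less certain. Ifit3b carries the window of Ifit3 letter for letter, at chr19:34607749-34607832. The other 4 members with a core were Ifi207, Oas3, Rsad2 and Trim30a.

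The low values implied libraries of 84200000 to 107600000 reads, and 49900000 to 61900000 of them lay in genes. The lowest value of any member, for Oas3 in an IgG library, rested on 69 reads, and the fewest reads behind a value, for Oas1g in the same library, were 62. Ptprc, which encodes CD45, was at 38.4, 15.8 and 19.3 FPKM after CD4 depletion with anti-CTLA4, at 34.0 and 39.9 FPKM in the libraries labelled anti-CTLA4, and at 12.4 and 14.9 FPKM in IgG libraries. Cx3cr1 was at 211 to 392 FPKM after CD4 depletion with anti-CTLA4, at 444 and 752 FPKM in the libraries labelled anti-CTLA4, and at 260 and 334 FPKM in IgG libraries. Both markers of the sort were thus present in every library. The column names of the anti-CTLA4 libraries conflict with the labels. They carry the sample sheet numbers 29 and 30, whereas the labels give 10 and 11 to anti-CTLA4, and the command in the file header gives 29 and 30 to libraries named MIFNGRKO1 and MIFNGRKO2. The sources used here do not say what these names stand for. Every direction against these 2 libraries depends on the column names. The Y-linked gene Eif2s3y was at 4.34 to 6.86 FPKM in the depletion libraries, 0.335 and 1.06 FPKM in those labelled anti-CTLA4 and 0.896 and 0.947 FPKM in IgG libraries. The Y-linked Uty and Ddx3y were also highest after depletion, whereas Kdm5d overlapped, with 0.663 FPKM in replicate 1 of depletion and 0.746 FPKM in replicate 1 of IgG. The X-linked Xist was at 2.16 to 6.08 FPKM over all libraries. The labels give no sex, and a difference in sex could not be told apart from the depletion. In bulk libraries, fewer cells of a type and less RNA per cell cannot be told apart.

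**Figure D1:**
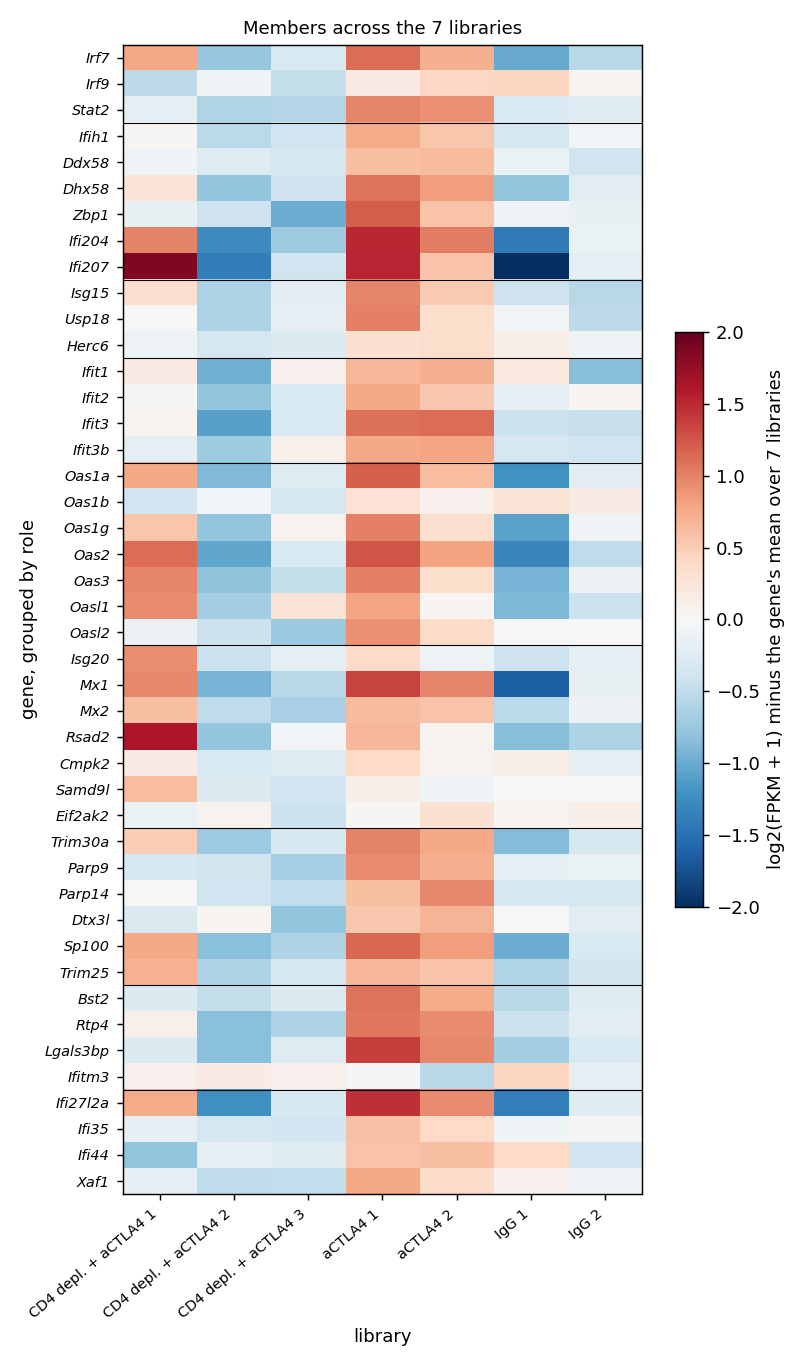
Level of each of the 44 members in each library, as log2(FPKM + 1) minus the mean of the gene over the 7 libraries, with colour ending at 2 in either direction and horizontal lines between roles. Both libraries labelled anti-CTLA4 lay above all 5 others for 27 of the 44 members, against 13.8% of all genes tested. Replicate 1 of CD4 depletion lay above both other depletion libraries for 35 members, against 24.3% of all genes tested.

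Anti-CTLA4, as labelled, went with higher levels than IgG in 21 members, drawn from nearly every role. The transcription factor Irf7 was 3.23-fold higher, the effector Mx1 4.15-fold, the modifier Isg15 2.35-fold and the membrane protein Bst2 2.47-fold. By limma, 21 of the 44 members were higher and 0 were lower at an adjusted p under 0.05. Counts of genes that rose or fell are counts of such calls. Over all genes tested, 9.29% were higher and 28.8% lower. The median log2 fold change of the members was 1.09, against −0.31 over all genes tested. In 38 members, or 86.4%, both libraries labelled anti-CTLA4 lay above both IgG libraries, as they did for 22.8% of all genes tested. Fewer members were called with 1 library of either group left out. Such a fit leaves 1 library in the group, so only the members' median is given here. It was 0.895 to 1.20 with 1 library left out. Without replicate 1 of depletion, which shares the estimate of spread, 32 members and 1644 of all genes tested were called higher.

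The size of these differences changed with the scaling. Scaled by the median of ratios, 2147 genes were higher and 2045 lower, against 1210 higher and 3747 lower as deposited, and 43 of the 44 members had a positive change. Scaled to the mean of 15 genes of homeostatic microglia, the median of all genes moved to −0.97, the members' median to 0.35, and 0 members were called, with 30 changes positive and 14 negative. Of all genes tested, 86 were then called higher and 5562 lower. The summed level of those 15 microglial genes was itself 8609 and 13010 FPKM in the libraries labelled anti-CTLA4 and 5984 and 4739 FPKM in IgG libraries. The summed level of 15 genes of the tumour and of oligodendrocyte precursors was 110 and 43.5 FPKM in the libraries labelled anti-CTLA4 and 782 and 1118 FPKM in IgG libraries. Genes listed as markers of other cell types also differed. Of 9 tested endothelial genes 6 rose and 0 fell for anti-CTLA4 over IgG, and the 10 listed summed to 62.4 FPKM in each library labelled anti-CTLA4 and to 24.3 and 25.3 FPKM in IgG libraries. The 3 B cell genes summed to 21.4 and 22.6 FPKM in the libraries labelled anti-CTLA4 and to 7.01 and 8.41 FPKM in IgG libraries. Most of this came from Cd79b, the 1 of them tested, which rose by 1.33 on the log2 scale. Cd79a was at 0.036 to 1.41 FPKM and Ms4a1 at 0 to 1.04 FPKM over all libraries, so these sums mainly follow 1 gene. The part of these shifts in the members' levels was not tested.

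With CD4 T cells depleted, 22 members were lower than with anti-CTLA4 alone as labelled, and the others did not pass. Stat2 was at 0.379 of its level there, Ifit3 at 0.342 and Lgals3bp at 0.324. By limma, 22 of the 44 members were lower and 0 were higher, whereas 6.59% of all genes tested were lower and 22.8% higher. The median log2 fold change of the members was −0.97, against 0.27 over all genes tested. In 29 members, or 65.9%, all 3 depletion libraries lay below both libraries labelled anti-CTLA4, which held for 15.7% of all genes tested. This comparison shares the libraries labelled anti-CTLA4 with the one against IgG, so the opposite directions are not independent. The count of members called lower was 32 without replicate 1 of depletion, 14 without replicate 2 and 7 without replicate 3. Over all genes tested the lower calls were 1158, 407 and 249 in those fits, against 858 with all libraries. Fewer members were also called with 1 of the libraries labelled anti-CTLA4 left out. With 1 library left out, the members' median was −1.18 to −0.79. Scaled by the median of ratios, 1463 genes were higher and 1650 lower, against 2969 higher and 858 lower as deposited. Scaled to the homeostatic genes, the median of all genes moved to 0.945, the members' median to −0.16, and 0 members were called, with 12 changes positive and 32 negative. Of all genes tested, 6140 were then called higher and 103 lower. The endothelial genes summed to 32.6, 44.2 and 53.8 FPKM after depletion. The B cell genes summed to 9.31, 8.32 and 7.29 FPKM there, again mostly from Cd79b. For depletion over anti-CTLA4, 2 of the 9 tested endothelial genes and Cd79b were called lower. The tumour genes summed to 199, 676 and 484 FPKM after depletion. The part of these values in the members' levels was not tested.

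**Figure D2:**
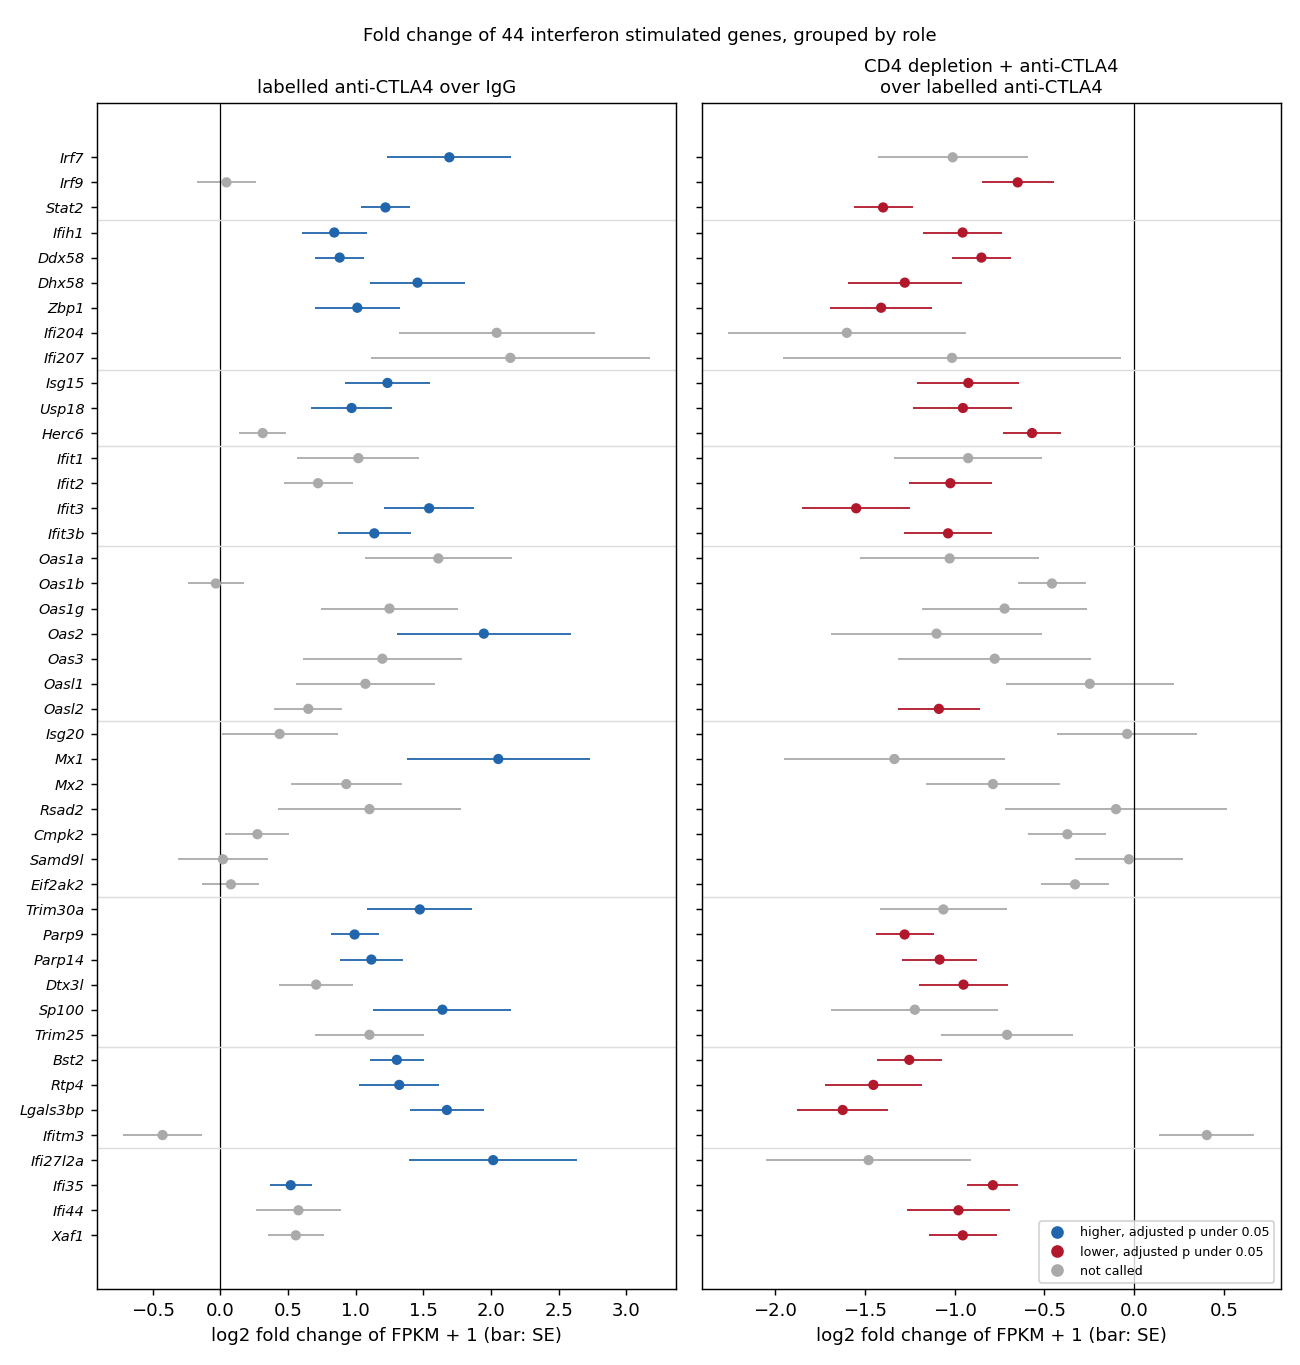
Log2 fold change of FPKM + 1 of each member with its standard error, grouped by role, for the libraries labelled anti-CTLA4 over IgG on the left and CD4 depletion with anti-CTLA4 over the libraries labelled anti-CTLA4 on the right. In the left panel 42 of 44 changes are positive and in the right panel 43 of 44 are negative, and Ifitm3 lies on the opposite side in both.

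The 3 transcription factors, Stat2, Irf7 and Irf9, gave different patterns of calls. Stat2, a subunit of ISGF3, was at 12.4, 9.18 and 9.40 FPKM after CD4 depletion with anti-CTLA4, at 29.2 and 28.1 FPKM in the libraries labelled anti-CTLA4, and at 11.4 and 12 FPKM in IgG libraries. The libraries labelled anti-CTLA4 lay above all others, and the depletion and IgG libraries overlapped. The log2 fold change of Stat2 was 1.22 ± 0.18 (SE) for anti-CTLA4 over IgG (limma adjusted p = 0.00936) and −1.40 ± 0.16 for depletion over anti-CTLA4 (limma adjusted p = 0.0114), the smallest p of any member in either comparison. Irf7, which drives the genes of the alpha interferons, was at 52.0, 17.3 and 24.0 FPKM after depletion, at 66.1 and 49.8 FPKM in the libraries labelled anti-CTLA4, and at 14.5 and 20.2 FPKM in IgG libraries. Replicate 1 of depletion lay within the anti-CTLA4 range, and the other depletion libraries lay nearer to IgG. Irf7 was higher by 1.69 ± 0.46 (SE) on the log2 scale for anti-CTLA4 over IgG (limma adjusted p = 0.0268), and its change of −1.01 ± 0.42 after depletion did not pass (limma adjusted p = 0.102). Irf9, the DNA-binding subunit of ISGF3, was at 21.3, 29.4 and 21.8 FPKM after depletion, at 35.0 and 41.5 FPKM in the libraries labelled anti-CTLA4, and at 42.2 and 32.2 FPKM in IgG libraries. Its depletion libraries lay below both other groups, which overlapped each other. Irf9 had a log2 fold change of 0.04 ± 0.22 (SE) for anti-CTLA4 over IgG (limma adjusted p = 0.883) and changed by −0.65 ± 0.20 for depletion over anti-CTLA4 (limma adjusted p = 0.0466). Scaled to the homeostatic genes, both changes of Irf9 took the opposite sign.

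Of the 6 sensors of RNA or DNA, 4 were called higher in the libraries labelled anti-CTLA4 over IgG. They were Ifih1, Ddx58 and Dhx58, the helicases of the RIG-I family that recognise viral RNA, and Zbp1, which binds left-handed nucleic acid. For depletion over anti-CTLA4, which shares libraries with the first comparison, these 4 fell, with changes of −0.96, −0.85, −1.28 and −1.41 on the log2 scale. Ddx58, which encodes RIG-I, was at 6.62, 5.74 and 5.30 FPKM after depletion, at 11.3 and 11.5 FPKM in the libraries labelled anti-CTLA4, and at 6.37 and 5.12 FPKM in IgG libraries. Its anti-CTLA4 libraries lay above the 5 others and close together. Ddx58 changed by 0.88 ± 0.18 (SE) for anti-CTLA4 over IgG (limma adjusted p = 0.0128) and by −0.85 ± 0.16 for depletion over anti-CTLA4 (limma adjusted p = 0.0158). Ifi204 and Ifi207, DNA-binding proteins of the PYHIN family, passed in neither comparison. Ifi207 was at 23.2, 1.53 and 4.03 FPKM after depletion, at 18.0 and 8.83 FPKM in the libraries labelled anti-CTLA4, and at 0.658 and 4.77 FPKM in IgG libraries. It had the largest change of any member for anti-CTLA4 over IgG, 2.14 ± 1.03 (SE) on the log2 scale, and the libraries within each group differed widely (limma adjusted p = 0.133). Ifi204 shared 30.2% of its 50-base pieces with other genes, 23.2% with Ifi211, so its level is uncertain.

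The ISG15 system attaches a small ubiquitin-like protein to other proteins. Isg15, the modifier, was at 43.1, 21.5 and 28.7 FPKM after depletion, at 67.7 and 49.0 FPKM in the libraries labelled anti-CTLA4, and at 25.1 and 22.8 FPKM in IgG libraries. Both libraries labelled anti-CTLA4 lay above the rest, and the depletion libraries spanned the IgG range. Isg15 changed by 1.24 ± 0.31 (SE) for anti-CTLA4 over IgG (limma adjusted p = 0.0221) and by −0.92 ± 0.28 for depletion over anti-CTLA4 (limma adjusted p = 0.047). Usp18, which removes ISG15 and restrains the receptor IFNAR2, was at 21.7, 13.6 and 19.2 FPKM after depletion, at 44.7 and 28.1 FPKM in the libraries labelled anti-CTLA4, and at 20.9 and 14.8 FPKM in IgG libraries. The order of groups was that of Isg15. Usp18 changed by 0.97 ± 0.30 (SE) for anti-CTLA4 over IgG (limma adjusted p = 0.0405) and by −0.95 ± 0.28 for depletion over anti-CTLA4 (limma adjusted p = 0.0396). Herc6, the main ISG15 ligase of the mouse, fell for depletion over anti-CTLA4, with the opposite sign when scaled to the homeostatic genes, and did not pass for anti-CTLA4 over IgG. It shared 23.8% of its pieces with Gm45193.

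The IFIT proteins bind foreign RNA ends and lie together on chromosome 19. Ifit3 was at 21.1, 9.03 and 16.2 FPKM after depletion, at 44.5 and 45.0 FPKM in the libraries labelled anti-CTLA4, and at 14.9 and 14.5 FPKM in IgG libraries. Within the anti-CTLA4 and IgG groups the replicates were nearly equal, and the depletion libraries lay on both sides of IgG. Ifit3 changed by 1.54 ± 0.33 (SE) for anti-CTLA4 over IgG (limma adjusted p = 0.0144) and by −1.55 ± 0.30 for depletion over anti-CTLA4 (limma adjusted p = 0.016). Ifit3b gave the same calls, but 51.2% of the 50-base pieces of Ifit3 occur in Ifit3b and 44.5% of those of Ifit3b in Ifit3, so the pair is not independent. Of the 2 comparisons, Ifit2 passed for depletion over anti-CTLA4, with −1.02 ± 0.23 (limma adjusted p = 0.0214), and Ifit1 passed in neither. Ifit1 was at 14.2, 5.89 and 13.3 FPKM after depletion, at 20.3 and 21.1 FPKM in the libraries labelled anti-CTLA4, and at 14.4 and 6.43 FPKM in IgG libraries.

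The 7 members of the OAS family, enzymes and relatives whose product activates an RNA-degrading nuclease, lie on chromosome 5. Oas2 was at 6.38, 0.655 and 1.75 FPKM after depletion, at 7.12 and 4.89 FPKM in the libraries labelled anti-CTLA4, and at 0.353 and 1.38 FPKM in IgG libraries. Replicate 1 of depletion lay between the 2 libraries labelled anti-CTLA4. Oas2 was the 1 family member called higher for anti-CTLA4 over IgG, by 1.95 ± 0.64 (SE) (limma adjusted p = 0.0483). The median change of the 7 was 1.20, and Oas1a, at 1.61, was just past the threshold (limma adjusted p = 0.0519). The change of Oas2 for depletion over anti-CTLA4, −1.10 ± 0.59, did not pass (limma adjusted p = 0.183). Oasl2 was at 21.0, 16.7 and 13.3 FPKM after depletion, at 44.2 and 30.4 FPKM in the libraries labelled anti-CTLA4, and at 23.0 FPKM in both IgG libraries. Its 3 groups did not overlap, with depletion lowest. Oasl2 was the 1 family member called lower for depletion over anti-CTLA4, with a change of −1.09 ± 0.23 (SE) (limma adjusted p = 0.0178). The median change of the 7 was −0.78 there. Oas1b, which governs resistance of mice to flaviviruses, was at 1.19, 1.78 and 1.27 FPKM after depletion, at 2.52 and 2.08 FPKM in the libraries labelled anti-CTLA4, and at 2.49 and 2.26 FPKM in IgG libraries. Its change for anti-CTLA4 over IgG was −0.03 ± 0.21 (SE) on the log2 scale (limma adjusted p = 0.908), and this sign turned positive under 2 of the other scalings. Oas1a and Oas1g share 57.6% and 54.1% of their pieces with each other, and neither they nor Oas3 and Oasl1 passed in a comparison.

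Among the other antiviral effectors, Mx1 alone passed, and only for anti-CTLA4 over IgG. Mx1 was at 8.16, 1.47 and 2.23 FPKM after depletion, at 11 and 8.27 FPKM in the libraries labelled anti-CTLA4, and at 0.516 and 3.25 FPKM in IgG libraries. Both IgG libraries lay below those labelled anti-CTLA4, and replicate 1 of depletion was just under them. Mx1 changed by 2.05 ± 0.68 (SE) for anti-CTLA4 over IgG (limma adjusted p = 0.0476) and by −1.34 ± 0.62 for depletion over anti-CTLA4 (limma adjusted p = 0.133). The others were Mx2, the nuclease Isg20, Rsad2, which makes a chain-terminating nucleotide, its neighbour Cmpk2, Samd9l and the kinase Eif2ak2. Eif2ak2, the double-stranded RNA kinase PKR, was at 6.61, 7.74 and 5.21 FPKM after depletion, at 7.51 and 9.29 FPKM in the libraries labelled anti-CTLA4, and at 7.70 and 8.03 FPKM in IgG libraries, so its 3 groups overlapped.

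Of the 6 PARP, TRIM and nuclear body genes, Parp9 and Parp14 passed in both comparisons. Parp9, which acts with the ubiquitin ligase Dtx3l, was at 12.1, 11.7 and 9.32 FPKM after depletion, at 30.4 and 25.9 FPKM in the libraries labelled anti-CTLA4, and at 13.4 and 13.8 FPKM in IgG libraries. Its 3 groups did not overlap, and depletion was lowest. Parp9 changed by 0.99 ± 0.18 (SE) for anti-CTLA4 over IgG (limma adjusted p = 0.0108) and by −1.28 ± 0.16 for depletion over anti-CTLA4 (limma adjusted p = 0.0114). Parp14, an ADP-ribosyltransferase, was at 4.18, 2.93 and 2.69 FPKM after depletion, at 6.88 and 9.16 FPKM in the libraries labelled anti-CTLA4, and at 3.16 and 3.09 FPKM in IgG libraries. Both libraries labelled anti-CTLA4 lay above the other 5. Parp14 changed by 1.12 ± 0.23 (SE) for anti-CTLA4 over IgG (limma adjusted p = 0.0132) and by −1.08 ± 0.21 for depletion over anti-CTLA4 (limma adjusted p = 0.016). Trim30a and Sp100, a nuclear body protein, rose for anti-CTLA4 over IgG by 1.47 and 1.64, and Dtx3l fell by 0.95 on the log2 scale for depletion over anti-CTLA4. Parp9 and Dtx3l lie on opposite strands of chromosome 16 and their ends overlap, and reads of both strands were counted, so part of their signal cannot be told apart.

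Of the 4 membrane or secreted products, 3 passed in both comparisons and Ifitm3 in neither. Bst2, or tetherin, which holds budding virus at the cell surface, was at 89.1, 77.3 and 89.2 FPKM after depletion, at 230 and 181 FPKM in the libraries labelled anti-CTLA4, and at 73.4 and 91.6 FPKM in IgG libraries. The depletion libraries fell within the IgG range and both groups lay far from the libraries labelled anti-CTLA4. Bst2 changed by 1.30 ± 0.20 (SE) for anti-CTLA4 over IgG (limma adjusted p = 0.00936) and by −1.25 ± 0.18 for depletion over anti-CTLA4 (limma adjusted p = 0.012). Lgals3bp, a secreted glycoprotein that binds galectin, was at 140, 94.8 and 142 FPKM after depletion, at 444 and 331 FPKM in the libraries labelled anti-CTLA4, and at 104 and 137 FPKM in IgG libraries. Depletion and IgG overlapped here too. Lgals3bp changed by 1.67 ± 0.28 (SE) for anti-CTLA4 over IgG (limma adjusted p = 0.00995) and by −1.62 ± 0.25 for depletion over anti-CTLA4 (limma adjusted p = 0.0124), the lowest fold change of any member. Rtp4, a chaperone of membrane receptors, was at 32.0, 16.1 and 18.9 FPKM after depletion, at 62.3 and 58.3 FPKM in the libraries labelled anti-CTLA4, and at 21.8 and 25.3 FPKM in IgG libraries. The libraries labelled anti-CTLA4 lay above all others. Rtp4 changed by 1.32 ± 0.30 (SE) for anti-CTLA4 over IgG (limma adjusted p = 0.016) and by −1.45 ± 0.27 for depletion over anti-CTLA4 (limma adjusted p = 0.0148).

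Ifitm3, which blocks fusion of viruses with the cell, ran against the other members. It was at 534, 561 and 534 FPKM after depletion, at 489 and 344 FPKM in the libraries labelled anti-CTLA4, and at 681 and 446 FPKM in IgG libraries. The depletion libraries were nearly equal and lay above both libraries labelled anti-CTLA4, which overlapped IgG. Ifitm3 changed by −0.43 ± 0.29 (SE) for anti-CTLA4 over IgG (limma adjusted p = 0.267) and by 0.41 ± 0.26 for depletion over anti-CTLA4 (limma adjusted p = 0.265), so neither difference passed as deposited. After quantile normalization it was called, lower for anti-CTLA4 over IgG and higher for depletion over anti-CTLA4.

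The 4 remaining members are Ifi27l2a, Ifi35, Ifi44 and Xaf1. Ifi35 was at 26.1, 22.9 and 22.4 FPKM after depletion, at 44.6 and 39.0 FPKM in the libraries labelled anti-CTLA4, and at 27.7 and 29.9 FPKM in IgG libraries. The 3 groups did not overlap. Ifi35 changed by 0.52 ± 0.16 (SE) for anti-CTLA4 over IgG (limma adjusted p = 0.0358) and by −0.79 ± 0.14 for depletion over anti-CTLA4 (limma adjusted p = 0.0143), and both changed sign when scaled to the homeostatic genes. Ifi27l2a rose by 2.02 ± 0.62 for anti-CTLA4 over IgG (limma adjusted p = 0.0396). Ifi44 and Xaf1 fell for depletion over anti-CTLA4, with log2 changes of −0.98 and −0.96. Xaf1, which binds the apoptosis inhibitor XIAP, was at 9.26, 7.09 and 7.13 FPKM after depletion, at 18.5 and 13.8 FPKM in the libraries labelled anti-CTLA4, and at 11.2 and 9.96 FPKM in IgG libraries.

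**Figure D3:**
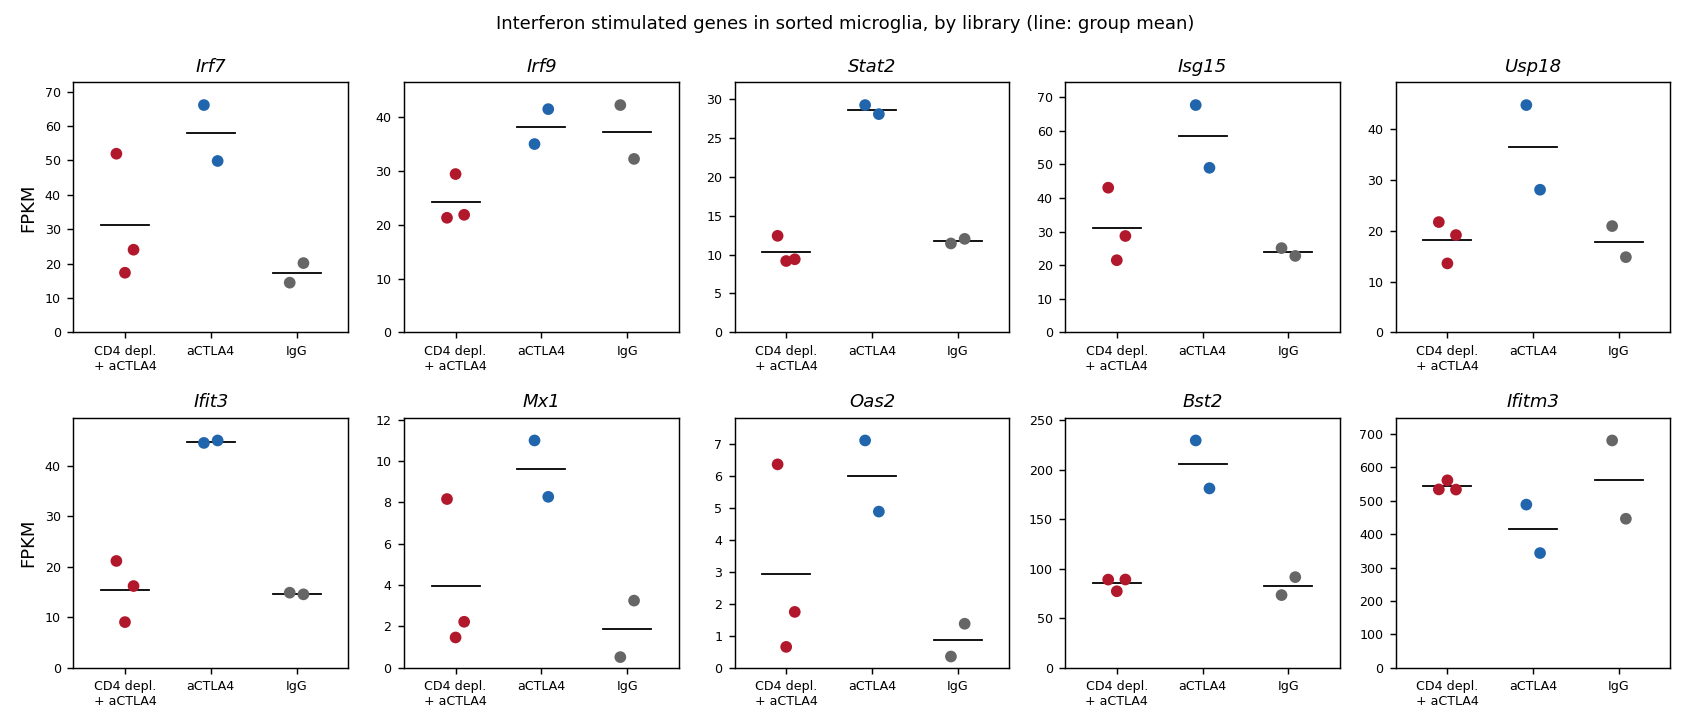
FPKM of 10 members in each library, with points for libraries and a line for the mean of each group, on axes that start at 0. Stat2, Ifit3 and Bst2 have both libraries labelled anti-CTLA4 far above the rest, Irf7, Mx1 and Oas2 have 1 depletion library near them, and Ifitm3 and Irf9 show other orders.

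Between CD4 depletion with anti-CTLA4 and IgG, no member passed. By limma 0 of 44 members were higher and 0 lower, as for all genes tested, of which 0% were called in either direction and the smallest adjusted p was 0.315. At an unadjusted p under 0.05, 2 of the 44 members and 851 of 13028 genes, or 6.53%, differed. The median log2 fold change of the members was 0.04, against −0.04 over all genes tested, with 25 changes positive and 19 negative. Without replicate 1 of depletion the median was −0.12, with 14 positive and 30 negative. In 7 members, or 15.9%, all 3 depletion libraries lay below both IgG libraries, close to the 16.2% of all genes tested. These were Oas1b, Oasl2, Irf9, Ifi35, Xaf1, Parp9 and Herc6, whose values in each library are given above except for Herc6. Herc6 was at 6.33, 5.17 and 5.49 FPKM after depletion and at 7.56 and 6.36 FPKM in IgG libraries.

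The smallest p in this comparison was that of Irf9, with a log2 fold change of −0.60 ± 0.20 (SE) for depletion over IgG (limma adjusted p = 0.71). Oas1b followed with −0.49 ± 0.19, Xaf1 with −0.40 ± 0.19, Oasl2 with −0.44 ± 0.23, Ifi35 with −0.27 ± 0.14 and Parp9 with −0.29 ± 0.16, each with a limma adjusted p of 0.71. None of these differences could be told from the spread between libraries. At the other end, Ifi207 had the largest positive change, 1.13 ± 0.94 (limma adjusted p = 0.755), which rested on the 23.2 FPKM of replicate 1. Of the fixed panel, Irf7 had 0.68 ± 0.42, Isg15 0.31 ± 0.28, Mx1 0.72 ± 0.62, Oas2 0.85 ± 0.59 and Stat2 −0.18 ± 0.16 (SE), with limma adjusted p-values of 0.712 to 0.777. Bst2 had 0.05 ± 0.18, Usp18 0.02 ± 0.28, Ifit3 −0.01 ± 0.30 and Ifitm3 −0.02 ± 0.26 (SE), with limma adjusted p-values of 0.945 to 0.997.

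The depletion group was not uniform. Its replicate 1 lay above both other depletion libraries for 35 of the 44 members, or 79.5%, and for 24.3% of all genes tested. For 14 members, or 31.8%, it was at least 2 times both others, against 3.95% of all genes. These 14 were Isg20, Mx1, Mx2, Oas1a, Oas2, Oas3, Rsad2, Irf7, Ifi27l2a, Ifi204, Ifi207, Samd9l, Sp100 and Trim25. Rsad2, for example, was at 20.7, 3.13 and 5.79 FPKM after depletion, at 10.2 and 6.36 FPKM in the libraries labelled anti-CTLA4, and at 2.91 and 3.57 FPKM in IgG libraries. For 6 members, Isg20, Oasl1, Rsad2, Ifi207, Samd9l and Trim25, replicate 1 was the highest of all 7 libraries, a share of 13.6% against 11.7% of all genes. It lay below both other depletion libraries for Oas1b, Irf9 and Ifi44.

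Markers of other cells moved with this library. The summed level of 10 monocyte genes was 1028 FPKM in replicate 1 of depletion and 27.7 to 66.3 FPKM in the other 6 libraries. Chil3, a marker of inflammatory monocytes, was at 487 FPKM there and Ccr2, their chemokine receptor, at 43.2 FPKM. The summed level of 7 neutrophil genes was 480.7 FPKM there and 6.28 to 89.4 FPKM elsewhere, and the summed level of the 15 homeostatic genes was lowest there, at 4025 FPKM. The part of these cells in the high values of replicate 1 was not tested. T cell genes summed to 2.57 to 5.10 FPKM over the 7 libraries, and of the 2 tested, 0 were called for anti-CTLA4 over IgG and 1, Cd3g, was called lower for depletion over anti-CTLA4. Plasmacytoid dendritic cells, which are strong producers of type I interferon, were represented by 4 genes that summed to 11.5, 2.99 and 5.74 FPKM after depletion, to 12.9 and 8.70 FPKM in the libraries labelled anti-CTLA4, and to 1.67 and 6.65 FPKM in IgG libraries. These sums were highest where the members were high, and they came almost wholly from Cox6a2 and Ly6d, while Ccr9 and Klk1 did not exceed 0.106 FPKM. Ly6d rose by 1.27 ± 0.37 (SE) for anti-CTLA4 over IgG (limma adjusted p = 0.0332), and Cox6a2 did not pass, with 1.13 ± 0.61 (limma adjusted p = 0.172). The part of such cells in the members' levels was not tested.

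**Figure D4:**
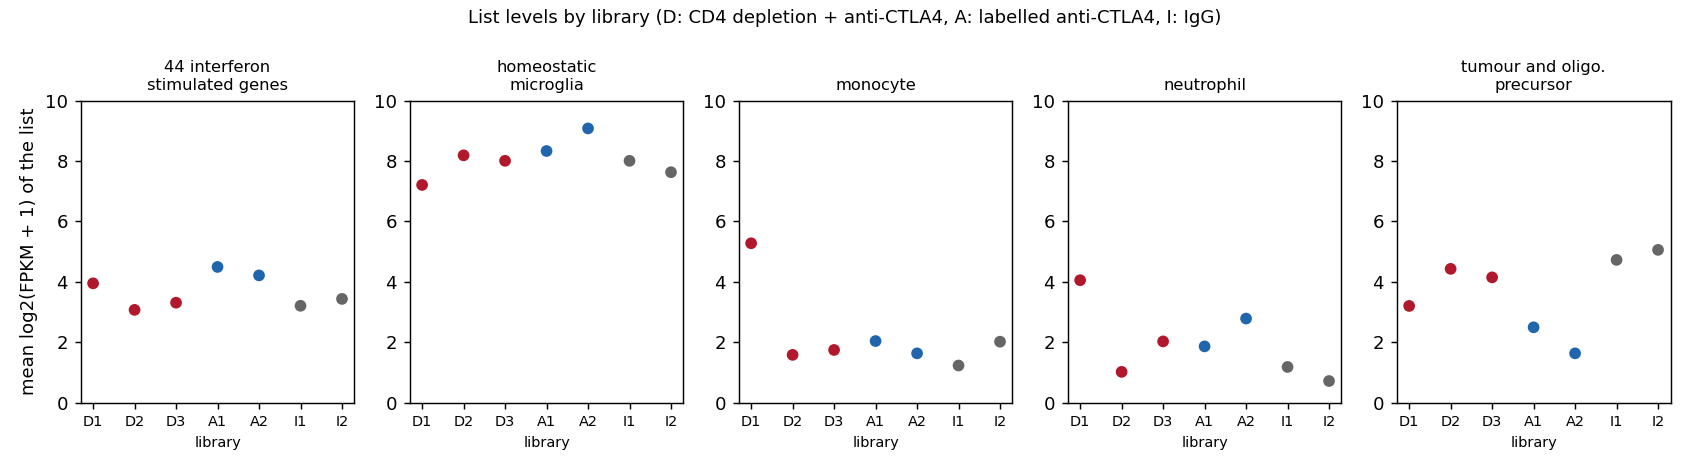
Mean log2(FPKM + 1) in each library of the 44 members and of 4 sets of cell type markers, with D for CD4 depletion with anti-CTLA4, A for libraries labelled anti-CTLA4 and I for IgG. The monocyte and neutrophil sets are highest in D1, where the homeostatic set is lowest, and the tumour set is lowest in A1 and A2, where the members are highest.

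The IgG libraries also differed. Replicate 2 was at least 2 times replicate 1 for Mx1, Oas1a, Oas1g, Oas2, Oas3, Ifi27l2a, Ifi204 and Ifi207, or 18.2% of the members against 3.32% of all genes. All 8 are members for which replicate 1 of depletion was also above both its fellow libraries, as it was for 35 of the 44 members. Among the libraries labelled anti-CTLA4, replicate 1 was above replicate 2 for 34 members, or 77.3%, against 55.9% of all genes. The monocyte sum was 66.3 FPKM in replicate 1 and 36.3 FPKM in replicate 2. The neutrophil sum went the other way, at 32.8 and 89.4 FPKM. The part of such cells in this difference was not tested.

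The ligands were at or near 0. Of 17 genes of type I interferons none passed the filter on low values. Ifnb1, the beta interferon, was at 0.582, 0 and 0.778 FPKM after depletion, at 2.5 and 0.911 FPKM in the libraries labelled anti-CTLA4, and at 0 and 0.186 FPKM in IgG libraries, the largest of these resting on 179 reads. It was highest in the libraries labelled anti-CTLA4, without a test. No other gene of the 17 exceeded 0.281 FPKM.

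The receptor chains and kinases were expressed in every library. Of 8 tested genes of the receptor and signalling chain, 5 rose for anti-CTLA4 over IgG and 0 fell, against 9.29% and 28.8% of all genes tested. Their median log2 fold change was 0.74. Scaled to the homeostatic genes, 0 were called higher and 1 lower, with a median of −0.083. Ifnar2 was at 61.2, 53.0 and 53.8 FPKM after depletion, at 98.5 and 112 FPKM in the libraries labelled anti-CTLA4, and at 49.6 and 44.7 FPKM in IgG libraries. It changed by 1.14 ± 0.16 (SE) for anti-CTLA4 over IgG (limma adjusted p = 0.00936) and by −0.90 ± 0.15 for depletion over anti-CTLA4 (limma adjusted p = 0.0129). Ifnar1, the partner chain, passed in neither, with 0.45 ± 0.22 for anti-CTLA4 over IgG (limma adjusted p = 0.142) and −0.02 ± 0.20 for depletion over anti-CTLA4 (limma adjusted p = 0.95). The chains of the interferon-gamma receptor rose as well, Ifngr1 by 0.92 ± 0.22 and Ifngr2 by 1.19 ± 0.22 (SE), with limma adjusted p-values of 0.0183 and 0.0115. Ifngr1 was at 140, 142 and 133 FPKM after depletion, at 204 and 271 FPKM in the libraries labelled anti-CTLA4, and at 143 and 107 FPKM in IgG libraries. Jak1 and Tyk2 rose by 0.67 and 0.82, and Jak1 took the opposite sign when scaled to the homeostatic genes. Ifng, the gamma interferon, was at most 1.08 FPKM and was not tested.

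Of the 8 genes of the chain, 4 fell for depletion over anti-CTLA4 and 0 rose, against 6.59% and 22.8% of all genes tested. The median of the 8 was −0.66, whereas scaled to the homeostatic genes 0 of them were called and the median was 0.20. Besides Ifnar2, those that fell were Ifngr1, Ifngr2 and the transcription factor Irf1, with log2 changes of −0.76, −0.75 and −1.51. The changes of Ifngr1 and Ifngr2 turned positive when scaled to the homeostatic genes.

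Of 13 tested sensors and adaptors upstream of interferon that are not members, 6 rose for anti-CTLA4 over IgG and 0 fell. Over all genes tested these shares were 9.29% and 28.8%. For depletion over anti-CTLA4, 3 fell and 0 rose, against 6.59% and 22.8% of all genes tested. The scaling moved these counts: by the median of ratios 11 rose and 10 fell in those 2 comparisons, by quantiles 8 and 8, and scaled to the homeostatic genes 0 were called, with medians of −0.23 and 0.37. By the median of ratios 2147 and 1650 of all 13028 genes tested were called in those directions, and by quantiles 1928 and 1460. Tlr7, the receptor of single-stranded RNA in endosomes, was at 25.7, 17.5 and 20.7 FPKM after depletion, at 39.6 and 48.6 FPKM in the libraries labelled anti-CTLA4, and at 17.6 and 16.2 FPKM in IgG libraries. Tlr7 changed by 1.32 ± 0.21 (SE) for anti-CTLA4 over IgG (limma adjusted p = 0.00967) and by −1.02 ± 0.19 for depletion over anti-CTLA4 (limma adjusted p = 0.0147). Irf5 and Unc93b1, a factor and a trafficking protein of that receptor, were called in both comparisons, with 1.27 and 1.28 for anti-CTLA4 over IgG and −0.88 and −1.12 for depletion over anti-CTLA4, where Irf5 turned positive when scaled to the homeostatic genes. Mb21d1, the DNA sensor cGAS, rose by 1.00 and the kinase Tbk1 by 0.47 for anti-CTLA4 over IgG, and Tbk1 turned negative with that scaling.

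Of 10 genes that restrain interferon signalling, 5 rose and 1 fell for anti-CTLA4 over IgG, against 9.29% and 28.8% of all genes tested. For depletion over anti-CTLA4, 4 of the 10 fell and 1 rose, against 6.59% and 22.8% of all genes tested. Scaled to the homeostatic genes, 0 were called higher and 1 lower for anti-CTLA4 over IgG, with a median of −0.12, and 1 higher and 0 lower for depletion over anti-CTLA4, with a median of 0.22. Trex1, which degrades cytosolic DNA, changed by 1.5 ± 0.28 (SE) for anti-CTLA4 over IgG (limma adjusted p = 0.0115) and by −1.27 ± 0.26 for depletion over anti-CTLA4 (limma adjusted p = 0.0169). The phosphatase Ptpn6 and the RNA editor Adar were called in the same directions, with 1.44 and 0.75 for anti-CTLA4 over IgG and −0.89 and −0.66 for depletion over anti-CTLA4, and scaled to the homeostatic genes both turned positive for depletion over anti-CTLA4 and Adar turned negative for anti-CTLA4 over IgG. Pias1, an inhibitor of STAT signalling, changed by 0.48 for anti-CTLA4 over IgG and −0.60 for depletion over anti-CTLA4, passed in both, and took the opposite signs with that scaling. The phosphatase Ptpn11 ran the other way, at −0.89 for anti-CTLA4 over IgG and 0.60 for depletion over anti-CTLA4, both past the threshold.

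A further 28 tested genes known to be induced by interferon but not among the 44 were examined beside them. For anti-CTLA4 over IgG 13 rose and 0 fell, against 9.29% and 28.8% of all genes tested, with a median log2 fold change of 0.96. For depletion over anti-CTLA4 15 fell and 0 rose, against 6.59% and 22.8% of all genes tested, with a median of −0.93. For depletion over IgG 0 passed, as for all genes tested. Uba7, the enzyme that activates ISG15, was at 16.3, 14.5 and 18.1 FPKM after depletion, at 37.1 and 46.6 FPKM in the libraries labelled anti-CTLA4, and at 10.2 and 13.2 FPKM in IgG libraries. Uba7 changed by 1.75 ± 0.20 (SE) for anti-CTLA4 over IgG (limma adjusted p = 0.00936) and by −1.30 ± 0.18 for depletion over anti-CTLA4 (limma adjusted p = 0.0119). Ube2l6, the conjugating enzyme of the same chain, fell by 1.37 on the log2 scale for depletion over anti-CTLA4. Znfx1 and Tor3a changed by 1.45 and 1.03 for anti-CTLA4 over IgG and by −1.23 and −1.12 for depletion over anti-CTLA4, all past the threshold. Scaled to the homeostatic genes, 0 of these 28 were called higher and 2 lower for anti-CTLA4 over IgG, and 0 were called in either direction for depletion over anti-CTLA4. The list was chosen with earlier results of these data known.

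Calls were made both among members with a promoter core and among those without one. For anti-CTLA4 over IgG, 6 of the 12 with a core and 6 of the 20 without one were called higher, with median log2 fold changes of 1.24 and 0.61. For depletion over anti-CTLA4, 5 of the 12 and 11 of the 20 were called lower, with medians of −1.02 and −0.82. Stat2, Isg15, Ifit3, Ifit3b and Bst2 carry a core and passed in both comparisons, whereas Oas1a, Oas1g, Oas3, Rsad2, Ifit1 and Ifi207 carry a core and passed in neither. Of the 12 members with no entry, 9 were called higher for anti-CTLA4 over IgG and 6 lower for depletion over anti-CTLA4. Over all genes tested, 9.29% were called higher in the first comparison and 6.59% lower in the second.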

How the data were processed

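RNA of sorted microglia was sequenced in 7 libraries. The submitters' processing notes name STAR, HOMER and DESeq2 and the mouse build mm10, with no versions in the sources used here. HOMER made the deposited FPKM values, per the file headers, from exon counts of both strands, condensed to 1 row per gene and normalized to 1000000. Low values were whole reads within 0.1 in 100% of the 272 to 304 values checked per library, which gave the depth. No count test was run.

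The test was limma 3.58.1 (R 4.3.3) on log2(FPKM + 1). Fold changes are on that scale, which makes changes of low genes look smaller. The filter kept genes with 1 FPKM or more in 2 or more libraries, the 3 groups shared 1 moderated estimate of spread, and the 3 comparisons were two-sided with Benjamini-Hochberg adjustment at 0.05. An exact permutation test of single values cannot go below 0.333 for 2 against 2 libraries or 0.2 for 3 against 2. The procedure was tested on simulated data. Members and lists were chosen with earlier results of these data known, and 2 genes of the lists are not reported here and are left out of their counts and sums. Values in every library are given for a fixed panel of 10 members and the 6 members of smallest p in each comparison, at most 5 called genes are named per list and comparison, and the members Ifit1, Ifi207, Eif2ak2, Herc6 and Rsad2 were added after their values were seen. Shared pieces are runs of 50 bases of a GENCODE vM21 transcript found in a transcript of another gene. The labels do not say whether replicate numbers pair the libraries, and the main fit did not use them. Alternatives were another pseudocount, no filter, other scalings, other fits, a block for the replicate number and leaving out each library.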

Additional observations from a re-analysis of the deposited data

How the results depend on the processing

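By limma, 21 members were higher for anti-CTLA4 over IgG as deposited, 12 with no filter on low values and 0 when scaled to the homeostatic genes. With replicate 1 of depletion left out, 32 were higher. Over all genes in those fits, 1210, 991, 86 and 1644 were higher. For depletion over anti-CTLA4, 22 were lower as deposited, 14 with no filter and 0 when scaled to the homeostatic genes. Without replicate 1, 2 or 3 of depletion, 32, 14 and 7 were lower. Over all genes in those fits, 858, 616, 103, 1158, 407 and 249 were lower. Leaving out a library of a compared group with 2 libraries left 1 there, and fewer members were then called. Only the members' medians are given for those fits. After quantile normalization 1 member, Ifitm3, was lower for anti-CTLA4 over IgG and 1 higher for depletion over anti-CTLA4. The members' median moved to 0.35 and −0.16 in these 2 comparisons when scaled to the homeostatic genes, and was 0.895 to 1.20 and −1.18 to −0.79 with 1 library left out. For depletion over IgG, 0 members passed under every alternative run, and the median was −0.12 without replicate 1 of depletion, −0.01 without replicate 1 of IgG and at most 0.22 with 1 library left out. The other pseudocount, the fit without a trend, the fit to 2 groups, the median of ratios and quantile normalization left the counts of called members within 1.5 times, apart from Ifitm3. The cause of the other shifts was not tested.

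Single genes changed sign as follows, on the log2 scale, with ranges over the fits that left out 1 library. For anti-CTLA4 over IgG, Oas1b was at 0.23 by the median of ratios, 0.33 by quantiles, and −0.13 to 0.062 with 1 library left out, where Irf9 was at −0.145 to 0.235. Scaled to the homeostatic genes, Irf9 was at −0.81, Ifi35 −0.34, Ifnar1 −0.34, Jak1 −0.19, Tbk1 −0.36, Pias1 −0.36 and Adar −0.065. For depletion over anti-CTLA4 with that scaling, Irf9 was at 0.22, Ifi35 0.089, Herc6 0.22, Ifnar1 0.80, Ifngr1 0.14, Ifngr2 0.14, Irf5 0.011, Ptpn6 0.007, Pias1 0.25 and Adar 0.18, and Ifnar1 was at −0.192 to 0.085 with 1 library left out. For depletion over IgG, where no gene passed, Ifit3 was at 0.050 by the median of ratios, 0.012 by quantiles and 0.018 when scaled to the homeostatic genes, and Ifitm3 at 0.036 by the median of ratios. With 1 library left out there, Ifit3 was at −0.26 to 0.31, Usp18 −0.22 to 0.25, Mx1 −0.025 to 1.46, Bst2 −0.11 to 0.21, Ifitm3 −0.33 to 0.28 and Ifngr1 −0.044 to 0.37.

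Same-numbered libraries had correlations of deviations from group means of −0.205 to 0.123. In a group of 2 libraries the deviations are equal and opposite, so these correlations are not independent. They cannot decide whether the numbers pair the libraries. With the replicate number as a block, 12 members were higher for anti-CTLA4 over IgG, beside 597 higher and 2068 lower over all genes tested. For depletion over anti-CTLA4, 0 members were lower, and 0 of all 13028 genes passed in either direction. The members' medians were 1.09, −0.92 and 0.004 in the 3 comparisons. Ifnar1 was then at 0.085 for depletion over anti-CTLA4 and Usp18 at −0.033 for depletion over IgG. The number 3 occurs only in the depletion group, so that library adds nothing to the blocked comparisons. With the numbers of the IgG libraries exchanged, a choice made after seeing the data, the counts were 25 and 0. Over all genes tested, 1085 were then higher for anti-CTLA4 over IgG and 0 lower for depletion over anti-CTLA4.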
